A study of Mus musculus with 6 samples.

Results

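The p53 tumour suppressor, encoded by Trp53 in the mouse, was examined with 9 genes that regulate it or are transcribed under its control in leukemia stem cells from bone marrow and from liver. The 10 genes (Trp53, Mdm2, Mdm4, Ccng1, Phlda3, Trp53inp1, Zmat3, Eda2r, Fas and Btg2) were chosen by symbol from the 53735 genes of the table, and each had exactly 1 row. All 10 were tested, since each averaged 10 or more normalized counts across the 6 libraries, as did 14298 genes in all. The cells came from untreated C57 mice, given as male by the labels, 13 days after transplantation of leukemia cells, with 3 libraries per tissue. The sources used here do not give the genotype of the leukemia, whether it was 1 clone, or the age and number of the mice. In the labels the 3 libraries are technical replicates, which their Xist and Y-linked levels, given below, do not match. A p-value here covers no more than the spread among these libraries, and whether they are independent was not tested.

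p53 is a transcription factor whose protein is kept scarce by the ubiquitin ligase Mdm2 and held inactive by the related protein Mdm4. DNA damage, oncogene activity and ribosomal stress release it from both. It then raises genes that halt the cell cycle, aid repair or start cell death, together with Mdm2 itself, which closes a feedback loop. In blood-forming stem cells p53 is known for limiting self-renewal and for eliminating cells with damaged DNA. Because p53 is controlled chiefly at the protein level, the transcripts of its targets are the usual RNA readout of its activity.

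p53 binds DNA as a tetramer, and each pair of subunits contacts a half-site of 10 bases. Windows of 300 bases (250 before to 50 after the annotated start, RefSeq, GRCm38.p6) were found for 8 of the 10 genes, with 9 windows in all, and Zmat3 and Trp53inp1 were not matched. The p53 half-site consensus reads the same on both strands, so that 1 scan covers both, and no other motif was searched. An exact match lay in 3 of the 9 windows, those of Trp53, Mdm2 and Ccng1, against 8.36% of all 32851 windows. Among the other p53 targets listed further on, 10 of 47 windows held one. The stretches below show these matches in capitals, with the p21 gene Cdkn1a added because it was the 1 p53 target of the lists whose level differed by replicate number.
Trp53, chr11:69580264-69580313, plus strand: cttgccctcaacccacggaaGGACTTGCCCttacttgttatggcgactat
Mdm2, chr10:117710875-117711004, minus strand: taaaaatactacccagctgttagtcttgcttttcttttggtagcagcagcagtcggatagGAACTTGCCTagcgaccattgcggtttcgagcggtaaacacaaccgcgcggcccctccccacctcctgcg
Ccng1, chr11:40755402-40755531, minus strand: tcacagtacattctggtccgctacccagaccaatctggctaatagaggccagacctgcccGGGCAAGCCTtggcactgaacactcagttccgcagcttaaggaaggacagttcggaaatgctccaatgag
Cdkn1a, chr17:29090876-29090967, plus strand: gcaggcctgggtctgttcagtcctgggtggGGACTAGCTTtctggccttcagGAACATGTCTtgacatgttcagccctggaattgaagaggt

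In Ccng1 the capitals are the second of 2 adjacent half-sites, and the 20 bases together differ from the consensus at 1 base. The Cdkn1a window shown also holds such a pair with 1 mismatch, starting 51 bases before its annotated start. The other Cdkn1a window (chr17:29093519-29093818) holds 0 exact matches, and its best pair has 7 mismatches. Pairs with at most 1 mismatch lay in 22 of all windows (0.067%). Each stretch lies before an annotated start and outside annotated exons. A match is a description of the letters, and no binding was measured here.

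Depth ran from 15404687 to 18478084 reads in bone marrow and from 9731597 to 13819061 in liver. Stem and progenitor genes (10 of 10 measured, among them Kit, Myb, Hoxa9 and Ly6a) summed to between 17395 and 18099 normalized counts in bone marrow and between 16183 and 16551 in liver. Of 11 hepatocyte genes 7, including Alb and Ttr, had 0 reads in every library, and the sum rested almost wholly on Apoa1. Of 10 macrophage and Kupffer cell genes Clec4f, Vsig4 and Cd5l had 0 reads, while Adgre1 (167 to 503) and Csf1r (95.1 to 179.9) were present in every library, and the list summed to 536 to 679 in bone marrow and 305 to 621 in liver. Neutrophil genes summed to 79.9 to 122 in bone marrow and to 177 to 880 in liver. Erythroid genes summed to 6587 to 7284 and 4275 to 4830, and mast cell and basophil genes to 22369 to 25591 and 15674 to 24142. Among the latter Prss34 rose in liver and Tpsb2 fell (log2 fold changes of 3.48 and -6.41, limma adjusted p = 0.016 and 0.0091), and Fcer1a (-2.03) and Cpa3 (-2.01) did not pass. The part of these cell type markers in the values below was not tested. Xist, made from the inactive X chromosome, stood at 4860 (bone marrow) and 6229 (liver) in the libraries numbered 1 against 4.28 and 1.42 in those numbered 2, with 2486 and 2425 in those numbered 3. The summed level of 4 Y-linked genes was 145 and 0 in the libraries numbered 1, 2987 and 2675 in those numbered 2, and 1553 and 1634 in those numbered 3. The male label thus does not match the libraries numbered 1, and those numbered 3 hold both kinds of transcript. Within a tissue libraries 1 and 2 differ in these transcripts, which does not match a label of technical replicates of 1 sample. Fewer cells of a type and less RNA per cell cannot be told apart in bulk samples.

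Trp53 (chromosome 11, 69580359 to 69591873, plus strand, GRCm38 as for all positions below) was abundant and varied little. It stood at 4646, 4130 and 4341 normalized counts in bone marrow replicates 1, 2 and 3 and at 4601, 4384 and 4473 in liver replicates 1, 2 and 3. The tissues overlapped, and the lowest and highest of the 6 libraries were both from bone marrow. The mean was 4372 ± 260 in bone marrow and 4486 ± 109 in liver (SD, n = 3 each). The log2 fold change, liver minus bone marrow on the log2(normalized count + 1) scale, was 0.04 ± 0.06 (SE), with a limma adjusted p of 0.81. Its 95% interval, -0.10 to 0.17, corresponds to 0.935 to 1.13 times the bone marrow level. It was the narrowest interval of the 10 genes. Without bone marrow replicate 2 the value was -0.0019.

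The 3 genes with the pattern most like that of Trp53 over the 6 libraries were Wdr34, Idi1 and the unnamed model RP24-387G4.3, with Pearson's r of 0.996, 0.987 and 0.985. The 6 points share library and depth, and 128 of 11441 genes compared reached an r of at least 0.9, so this is a description only.

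Per kilobase of annotated exon, Trp53 was also at the top of the set. Over the 6 libraries its mean was 1095 normalized counts per kilobase, followed by Btg2 with 963 and Ccng1 with 920. These 3 overlapped between libraries (1021 to 1149, 647 to 1767 and 739 to 1170). Phlda3 (323) and Mdm2 (225) came next and also overlapped, as did Mdm4 (78.6) and Trp53inp1 (69.0). Fas had 38.3 and Zmat3 32.0. Eda2r was lowest with 6.54 and a range of 4.57 to 10.7, under every library of the other 9 genes. Exon lengths are those of GENCODE M21, taken over all transcripts of a gene, so genes with long, little-used exons such as Mdm4 may be set too low. No annotated gene shares exon bases with any of the 10.

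Neither negative regulator of p53 passed the test between tissues. Mdm2 (chromosome 10, 117688875 to 117710758), the ubiquitin ligase that is also a p53 target, stood at 1018, 1313 and 1178 normalized counts in bone marrow and at 984, 1169.8 and 1196 in liver. In both tissues the library numbered 1 was lowest, and the tissues overlapped. Its log2 fold change was -0.06 ± 0.12 (SE, limma adjusted p = 0.85), with an interval of -0.34 to 0.21. Without liver replicate 1 it was 0.02. Mdm4 (chromosome 1, 132959484 to 133030561), which masks the activation domain of p53, stood at 1033, 1269.9 and 1099.7 in bone marrow and at 1278.5, 1222 and 1073 in liver. The difference was 0.07 ± 0.10 (limma adjusted p = 0.79, interval -0.17 to 0.31), and the order of the numbered libraries differed between the tissues.

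Ccng1 (chromosome 11, 40748552 to 40755311), which encodes cyclin G1, a target that acts back on Mdm2 through a phosphatase, was even in liver and uneven in bone marrow. The 3 liver libraries held 3113, 3106 and 3137 normalized counts, an SD of 16.2 where counting error alone gives 55.5 to 66.4 per library. The bone marrow libraries held 2596, 4108 and 3323, below and above all liver libraries. The difference between tissues was -0.07 ± 0.15 (limma adjusted p = 0.86, interval -0.42 to 0.27), and it was 0.09 without bone marrow replicate 2.

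**Figure D1:**
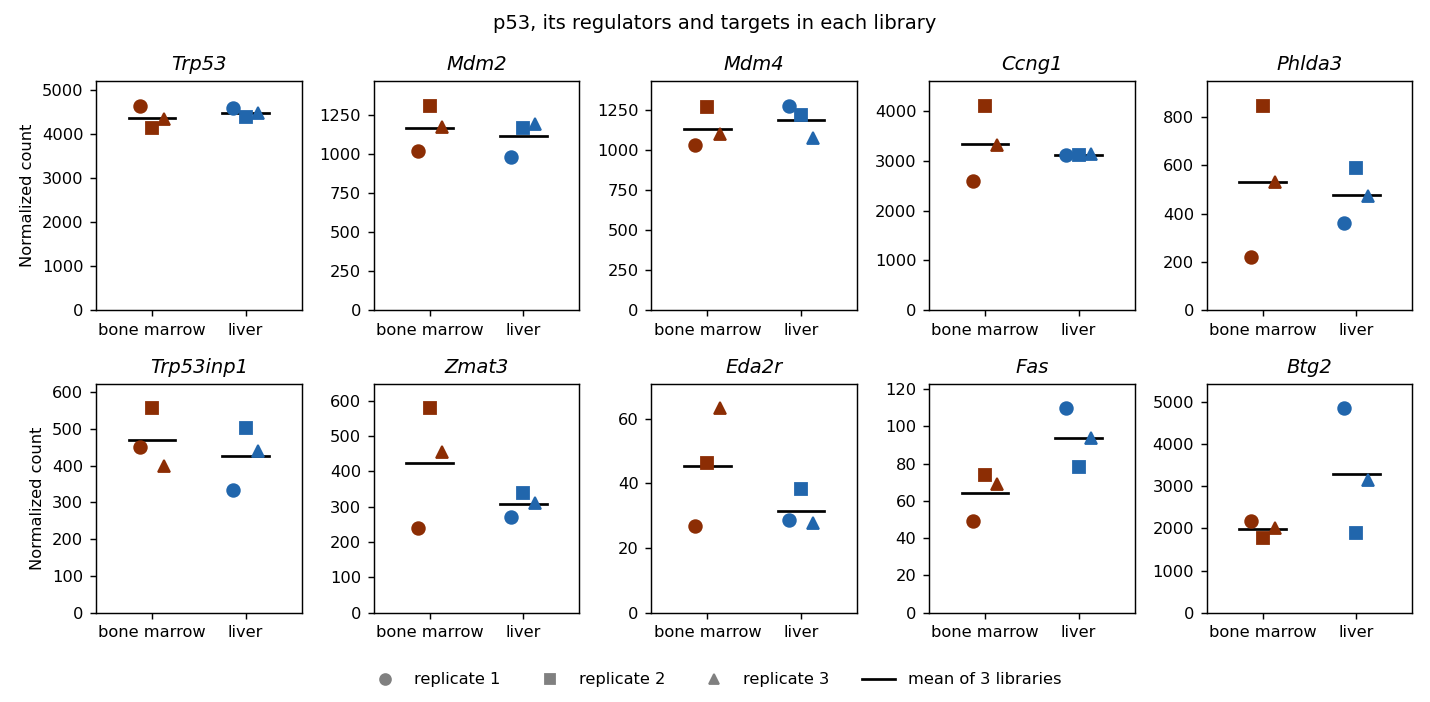
Normalized counts (y axes, each from 0) of the 10 genes in the 3 bone marrow and the 3 liver libraries, with symbols for the replicate number and a line at the mean of each tissue. Fas is the 1 gene whose tissues do not overlap, and Phlda3 and Zmat3 are lowest in the library numbered 1 in both tissues.

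Among targets that restrain growth or survival, Phlda3 varied most within bone marrow. Phlda3 (chromosome 1, 135766119 to 135769136) encodes a small lipid-binding protein that competes with Akt for the membrane. It stood at 219, 847 and 530 normalized counts in bone marrow, a 3.87-fold range, and at 362, 590 and 473 in liver, a 1.63-fold range. The liver values lay inside the bone marrow range. The mean was 532 ± 314 in bone marrow and 475 ± 114 in liver (SD, n = 3 each). The difference of the mean log2 levels was 0.01 ± 0.45 (limma adjusted p = 0.99), opposite in sign to that of the means, and edgeR and DESeq2 on recovered reads gave -0.17 and -0.16. The interval of -1.04 to 1.07 spans 0.486 to 2.09 times the bone marrow level. The value was -0.52 without bone marrow replicate 1 and 0.45 without bone marrow replicate 2.

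Zmat3 (chromosome 3, 32334792 to 32366014), an RNA-binding zinc finger protein that mediates part of the growth suppression by p53, stood at 239, 579 and 455 normalized counts in bone marrow and at 272, 338 and 309 in liver. Bone marrow replicate 1 lay under all liver libraries and the other two above them. The difference was -0.38 ± 0.30 (limma adjusted p = 0.60, interval -1.08 to 0.32). It was -0.75 without bone marrow replicate 1 and -0.11 without bone marrow replicate 2. Trp53inp1 (chromosome 4, 11156431 to 11174379), a nuclear stress protein that favours phosphorylation of p53, stood at 451, 556 and 398 in bone marrow and at 333, 503 and 439.5 in liver. The tissues overlapped, and the difference was -0.15 ± 0.18 (limma adjusted p = 0.76, interval -0.57 to 0.28). Without liver replicate 1 it was 0.02.

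The 2 death receptor genes went in opposite directions, and neither passed the test. Fas (chromosome 19, 34290666 to 34327772), the receptor of Fas ligand, stood at 49.4, 73.6 and 69.2 normalized counts in bone marrow and at 109.7, 78.2 and 93.9 in liver, and the tissues did not overlap. Behind these values were 234 reads in bone marrow and 244 in liver. The difference was 0.55 ± 0.24 on the log2 scale (limma adjusted p = 0.32, interval -0.01 to 1.11), and it stayed between 0.38 and 0.68 in the fits that left out 1 library. Eda2r, the receptor of ectodysplasin A2 and an X-linked gene (97333840 to 97377216), stood at 26.9, 46.2 and 63.2 in bone marrow and at 28.7, 38.4 and 27.7 in liver. It was the least measured gene, with 169 reads in bone marrow and 79 in liver. The tissues overlapped, and the difference was -0.45 ± 0.37 (limma adjusted p = 0.62, interval -1.30 to 0.41), with -0.77 without bone marrow replicate 1 and -0.17 without bone marrow replicate 3.

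Btg2 had the largest log2 fold change of the 10 genes and also the widest spread in liver. Btg2 (chromosome 1, 134075170 to 134079120) is an antiproliferative factor that promotes shortening of mRNA tails, and it is an immediate early gene as well as a p53 target. Its bone marrow libraries held 2174, 1774 and 2018 normalized counts, and its liver libraries 4846, 1898 and 3145. Liver replicates 1 and 3 lay above all bone marrow libraries and liver replicate 2 among them. The means were 1989 ± 201 and 3296 ± 1480 (SD, n = 3 each), a difference of 0.63 ± 0.30 on the log2 scale (limma adjusted p = 0.36, interval -0.06 to 1.32). It was 0.30 without liver replicate 1 and 0.98 without liver replicate 2. The latter fit gave 0.073, the lowest adjusted p of any of the 10 genes under the alternatives run.

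Immediate early and dissociation genes, which respond within minutes to stress and to cell isolation, were measured beside Btg2. Of 18 such genes 4 rose in liver by limma adjusted p, 0 fell and 14 did not pass. Over all genes tested 1.01% were called. The median log2 fold change of the 18 was 0.27, with 13 positive and 5 negative. Over all 14298 genes tested 6924 were positive. Every liver library was above bone marrow for 7 genes, against 11.4% of all genes tested. For 2 genes, Fosb (-0.50) and Klf6 (-0.46), every liver library was below, against 10.9%. The 4 that passed were the heat shock genes Hspa1a (2.43), Hspa1b (2.09) and Dnajb1 (0.78) and the stress factor Atf3 (0.78). Hspa1a and Hspa1b are near-identical copies that may share reads. The count of genes that passed was 0 without bone marrow replicate 1, bone marrow replicate 3 or liver replicate 3. It was 2 without bone marrow replicate 2. The summed level of the 18 genes was 80210.0, 66393 and 72738 normalized counts in bone marrow and 97436, 76383 and 86351 in liver. In each tissue it was highest in the library numbered 1 and lowest in that numbered 2, the order seen for Btg2. Its part in the Btg2 values was not tested.

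Across the set, 0 of the 10 genes differed between the tissues at an adjusted p under 0.05 by limma, against 1.01% of all genes tested. The count was also 0 by edgeR and DESeq2 on recovered reads. At an unadjusted p under 0.05 it was 0 of 10, against 15.7%. The liver libraries were all above those of bone marrow for 1 of 10 genes, Fas, against 11.4% of genes tested, and all below for 0 of 10, against 10.9%. Both shares were near or under those of all genes. Of the log2 fold changes 5 were positive and 5 negative, with a median of -0.03 against -0.01 over all genes. The count of all genes that differed, 145, moved with each library left out: to 11, 17 and 6 for bone marrow 1, 2 and 3, and to 427, 86 and 8 for liver 1, 2 and 3. The count of the 10 genes was 0 in each of these fits.

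**Figure D2:**
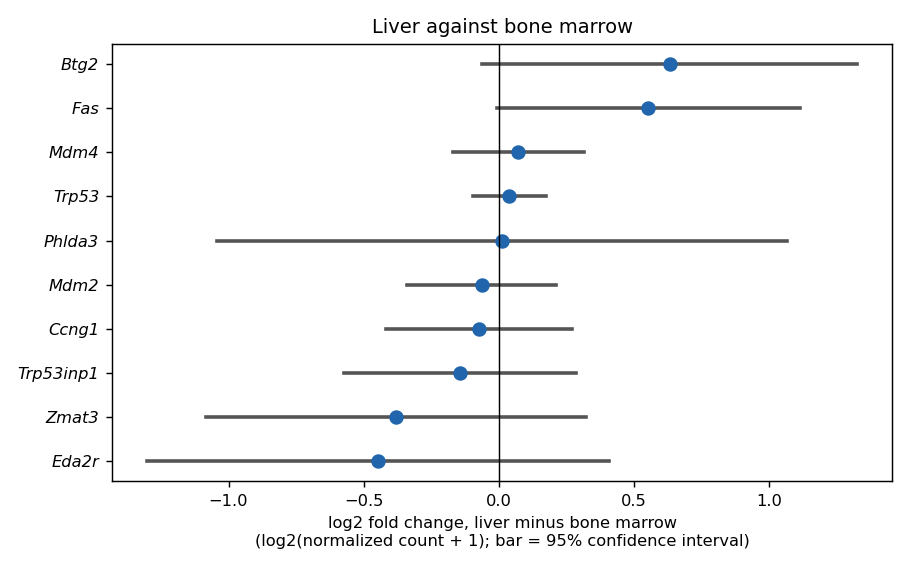
Log2 fold change of each gene, liver minus bone marrow (x axis, log2(normalized count + 1)), as a point with its 95% confidence interval from limma. Every interval includes 0. Trp53 has the narrowest interval (-0.10 to 0.17) and Phlda3 the widest (-1.04 to 1.07).

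The libraries of 1 tissue differed more than the tissues did for most of the set. With tissue and replicate number as terms, replicate number took 87.4% of the variation of Mdm2 between libraries, 81.4% of that of Phlda3, 75.4% for Trp53, 65.4% for Trp53inp1 and 58.6% for Zmat3. The median over the 10 genes was 53.2% for replicate number and 10.5% for tissue, and over all genes tested 37.6% and 21.5%. Replicate number has 2 degrees of freedom and tissue 1, so the former takes the larger share of random variation. Fas was the exception, with 60.2% for tissue and 2.24% for replicate number.

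By the limma F test of replicate number 0 of 10 genes passed at an adjusted p under 0.05, against 1.51% of genes tested. At an unadjusted p under 0.05 there were 4 (Phlda3, Btg2, Zmat3 and Mdm2), against 14% of genes tested. The adjusted p of Phlda3 was 0.11 by limma and 0.13 by edgeR, and DESeq2 gave 0.00039 and called it alone among the 10. DESeq2 called 520 genes in all. The limma calls moved with single libraries. Each such fit leaves no second library of that replicate number and few residual degrees of freedom, so its calls carry little weight. The counts over all genes in these fits are given with Cdkn1a below. Phlda3 and Btg2 passed without bone marrow replicate 1, Btg2 without bone marrow replicate 2, and Phlda3, Zmat3 and Ccng1 without liver replicate 1, while 0 of 10 passed without each of the other 3 libraries.

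The order of the numbered libraries was partly shared between the tissues. Phlda3, Zmat3 and Mdm2 were lowest in the library numbered 1 in both tissues, which makes 3 of 10 genes (30%) against 18.8% of genes tested. With 10 genes this difference is small, and it was not tested. Phlda3 was 3.87 times higher in replicate 2 than in replicate 1 of bone marrow and 1.63 times in liver. For Zmat3 these ratios were 2.42 and 1.25, and for Mdm2 1.29 and 1.19. Trp53 and Btg2 had the opposite order, with replicate 1 highest and replicate 2 lowest in both tissues, but for Trp53 the ratios were only 0.889 and 0.953. Replicate 1 was above replicate 2 in both tissues for 2 of 10 genes (20%), against 30.4% of genes tested. The libraries numbered 1 are those with the highest Xist level, and the part of that difference in these values was not tested.

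Cdkn1a encodes the CDK inhibitor p21, the main effector of p53 in cell cycle arrest. It was the 1 of 40 other p53 targets whose level differed by replicate number, against 1.51% of all genes tested. It is described here because of that value, and genes outside the p53 lists with the same order are given at the end. It stood at 1702, 3566 and 2632 normalized counts in bone marrow and at 1364, 2618 and 2195 in liver. In both tissues replicate 1 was lowest, replicate 3 intermediate and replicate 2 highest, with 2.10-fold and 1.92-fold between the extremes. The Xist level and the Y-linked sum of replicate 3 also lay between those of replicates 1 and 2 in both tissues. In bone marrow replicate 3 lay close to the mean of the 3 libraries for Cdkn1a (2632 against 2634) and Phlda3 (530 against 532). For Trp53inp1 and Eda2r it lay outside replicates 1 and 2. The tests treat replicate 3 as an independent library, and whether it is one was not tested. If it is not, each SD, interval and p-value rests on fewer libraries than stated, and an intermediate replicate 3 is no separate result. For Cdkn1a the limma F test gave an adjusted p of 0.0050, with 84.9% of the variation on replicate number. The call was lost without bone marrow replicate 3 (adjusted p = 0.074) and without liver replicate 3 (adjusted p = 0.085). Between tissues the difference was -0.34 (limma adjusted p = 0.66, interval -1.07 to 0.38), and the tissues overlapped. At each replicate number the liver library was the lower. With replicate number as a block the limma adjusted p was 0.032, and 0.33 when both replicate 3 libraries were also left out. The number of all genes that differed by replicate number was 216, and it became 1276, 359 and 23 when bone marrow 1, 2 or 3 was left out and 322, 98 and 5 when liver 1, 2 or 3 was. Of the exon bases of Cdkn1a (chromosome 17, 29090976 to 29100727) 7.68% are shared with the antisense model AC167363.2, whose reads cannot be told apart without strand.

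**Figure D3:**
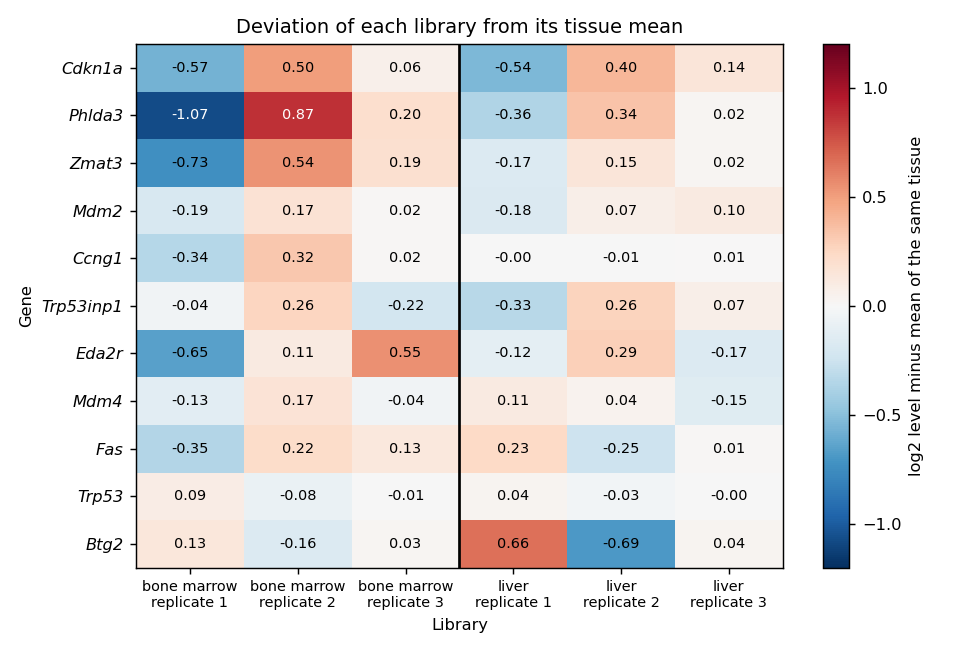
Deviation of each library (columns) from the mean of its own tissue on the log2(normalized count + 1) scale, for Cdkn1a and the 10 genes (rows), blue below and red above the mean. Cdkn1a (-0.57 and -0.54), Phlda3, Zmat3, Mdm2, Trp53inp1, Eda2r and Ccng1 (-0.34 and -0.0025) are below the mean in the library numbered 1 in both tissues, while Trp53 stays within 0.09 of its means.

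With tissue as the only term, 0 of the 40 other p53 targets passed by limma, against 1.01% of all genes tested. Of the 40, 9 had an unadjusted p under 0.05, against 15.7%. Of 18 targets acting in arrest and death 0 passed by limma or edgeR. DESeq2 called 1, where it called 622 genes in all. Without liver replicate 2 limma called 1, in a fit that called 86 genes in all. Without each of the other libraries in turn it called 0 of the list. The median log2 fold change of these targets was 0.0015, with 9 values positive and 9 negative. An unadjusted p under 0.05 was reached by 4 of the 18, against 15.7% of all genes tested. Those 4 were Pmaip1, Plk3, Plk2 and Pidd1. Pmaip1, a BH3-only death gene, stood at 1255, 1277 and 1233 normalized counts in bone marrow and at 1919, 1521 and 1729 in liver, without overlap (0.45, limma adjusted p = 0.072). The kinase gene Plk3 had -0.32, the kinase gene Plk2 0.79, and Pidd1, which serves caspase activation, 0.40, each with an adjusted p of 0.16 to 0.28. Bax, the pore-forming death gene, stood at 2105 ± 368 and 2049 ± 90.9 (SD, n = 3 each) and Bbc3, another BH3-only gene, at 396 and 335. Bax and Bbc3, widely used p53 readouts, were named after their values were seen.

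Of 22 targets in repair, metabolism and stress 0 passed by limma or edgeR. DESeq2 called 2, where it called 622 genes in all. Without liver replicate 1 limma called 2, in a fit that called 427 genes in all. Without each of the other libraries in turn it called 0 of the list. The median of the 22 was -0.145 (7 positive, 15 negative), and 5 had an unadjusted p under 0.05, against 15.7% of all genes tested. The smallest p was that of Tap1, a peptide transporter of antigen presentation, at 4027, 3905 and 3669 normalized counts in bone marrow and 3231, 3083 and 3172 in liver (-0.29, adjusted p = 0.068). Gpx1, glutathione peroxidase, had 0.16, the stress sensor gene Sesn1 -0.33 and the spindle gene Ckap2 0.24. Over both lists replicate 1 was lowest in both tissues for 13 of 40 genes (32.5%), against 18.8% of genes tested.

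Among 30 other regulators of p53 with a row, 28 were tested, and Trp63 and Trp73, the relatives of Trp53, were under the filter with means of 0 and 0.143 normalized counts. Of the 28, 0 passed by limma or edgeR, and DESeq2 called 1, where it called 622 genes in all. An unadjusted p under 0.05 was reached by 4, near the 15.7% of all genes tested. Chek1, a checkpoint kinase that phosphorylates p53, stood at 271, 290.3 and 210.4 in bone marrow and 406, 418 and 385 in liver, without overlap (0.66, limma adjusted p = 0.088). The ribosomal protein gene Rpl23, whose product binds Mdm2, had -0.13, Trp53bp2, a p53 cofactor, -0.70, and the ubiquitin ligase gene Huwe1 -0.19. The median was -0.01, with 13 positive and 15 negative.

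Cell cycle genes that p53 lowers through p21 and the DREAM repressor complex had positive values throughout. Of 15 genes 15 had a positive log2 fold change, against 6924 of 14298 genes tested. The values lay between 0.06 and 0.47 (median 0.29). In 11 every liver library was the higher, against 11.4% of all genes tested. These genes belong to 1 program and may move together, so 15 is not a count of separate results. The part of p53 in these values was not tested. At the adjusted threshold 0 passed by limma or edgeR. DESeq2 called 5, where it called 622 genes in all. An unadjusted p under 0.05 was reached by 11, against 15.7% of all genes tested. Without liver replicate 1 limma called 6, in a fit that called 427 genes in all. Without each of the other libraries in turn it called 0 of the list. Ccna2, cyclin A2, stood at 2500.5, 2511 and 2503 normalized counts in bone marrow and at 2947, 3326 and 3053 in liver (0.31, limma adjusted p = 0.070). The mitotic kinase gene Aurka had 0.47, the survivin gene Birc5 0.44 and Cdk1 0.45. The same genes had a median of 11.6% of their variation on replicate number, against 53.2% for the 10 genes of the p53 set. On tissue the medians were 67.0% and 10.5%, and a larger share on 1 term leaves less for the other. The difference between the 2 sets was not tested.

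**Figure D4:**
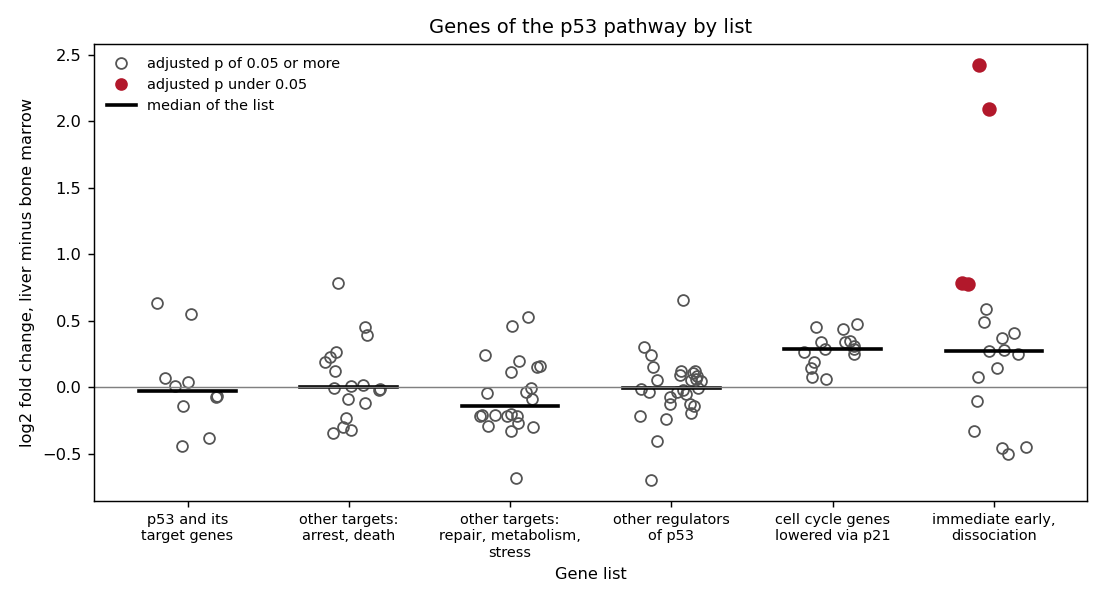
Log2 fold change, liver minus bone marrow (y axis), of each tested gene (points, spread sideways at random) in the p53 set and 5 further lists, with the median as a line and genes past the adjusted threshold filled in red. The 4 filled points, all immediate early and dissociation genes, are Hspa1a, Hspa1b, Dnajb1 and Atf3, and the cell cycle list lies wholly above 0.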

How the data were processed

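Per the labels' protocols, a spin-column kit gave total RNA, from which libraries were made by low-input cDNA synthesis and tagmentation, which does not keep the strand. The submitters' processing notes name R 3.4.1, DESeq2 1.16.1, STAR 2.6.0c, Trimmomatic 0.36 and bcl2fastq 2.19.0. Build, annotation and counter: not given in the sources used here. Each deposited signal value is a normalized count, per the name of the table. Within a library all values (100%) were whole multiples of 1 step within 0.01, as for reads divided by a size factor, and division by that step gave back the reads.

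From these values limma 3.58.1 was run on log2(normalized count + 1) (R 4.3.3, variance trend, two-sided, Benjamini-Hochberg over 14298 genes), with tissue as the term, and for the F test tissue and replicate number. edgeR 4.0.16 and DESeq2 1.42.0 were run on recovered reads. The scripts were tested on simulated data. Replicates were kept apart: the chi-square per degree of freedom between libraries of a tissue was 6.50 to 25.9. The 10 genes and all lists were chosen with earlier results of these data known. Named genes were the 10, those past the threshold in each list and the 4 of smallest p. Figures were drawn with matplotlib 3.10.9.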

Additional observations from a re-analysis of the deposited data

How the results depend on the processing

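None of the 10 genes passed the tissue test in any of 16 alternatives (TMM factors, a pseudocount of 0.5 or 10, a filter at a mean of 50 or none, edgeR, DESeq2, the replicate block, both replicate 3 libraries left out with and without that block, and each library left out), 159 fits in all, since Eda2r was under the filter of 50. The lowest adjusted p was 0.073, and 5 genes kept 1 direction while 5 took both. The number of all genes that differed by tissue was 145, against 622 by DESeq2, 525 with the replicate block, 2 without both replicate 3 libraries, 15 with both of these changes, and 6 to 427 with 1 library left out. Same-numbered libraries deviated together in 2 of 3 pairs (r = 0.44, 0.40 and 0.06), and liver replicate 3 was closer to bone marrow replicate 2 (0.15). The Xist and Y-linked levels, in contrast, went by number in both tissues. The r of 0.06 is that of number 3, and it tells little for genes in which replicate 3 lies near its tissue mean. These values do not decide whether the numbers mark pairs, and the labels do not say. The main fits left the numbers unpaired, with the block as an alternative. If the numbers do mark pairs, the main fits ignore that, and the block is the closer test. Of the 10 genes 0 passed either way. With the replicate block limma called 2 targets of arrest and death, 2 of repair, metabolism and stress, 1 other regulator, 4 cell cycle genes and 8 immediate early genes, where without it the counts were 0, 0, 0, 0 and 4. Cdkn1a was among them, at the same -0.34 with an adjusted p of 0.032 in place of 0.66, and at 0.33 with the block but without both replicate 3 libraries, where all 5 counts were 0. By replicate number 216 genes differed, against 600 with no filter, 520 by DESeq2, 83 without both replicate 3 libraries and 5 to 1276 with 1 left out. Of the 10 genes this was 0, against 2 with no filter (Phlda3 and Btg2), 1 by DESeq2 and 0 to 3 with 1 left out. Leaving out libraries in the replicate-number test was chosen after seeing the data. The causes were not tested. Eda2r and Fas rest on the fewest reads of the 10 genes, 169 and 234 in bone marrow and 79 and 244 in liver.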

Other observations

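Ly6a, which encodes the stem cell antigen Sca-1, also differed by replicate number (limma F test, adjusted p = 0.012), in the order seen for Cdkn1a. It stood at 1516, 2826 and 2164 normalized counts in bone marrow and at 713, 1633 and 1335 in liver, and the difference between tissues was -0.86 (limma adjusted p = 0.27). It was the 1 of 10 stem and progenitor genes that passed the test of replicate number, against 1.51% of all genes tested. By the same limma F test 3 of 8 mast cell and basophil genes passed, Mcpt8, Cpa3 and Fcer1a (adjusted p = 0.0024, 0.0042 and 0.040). The endothelial gene Tie1 also passed (adjusted p = 0.011). All had the order seen for Cdkn1a in both tissues, so that order was not particular to p53 targets. Ly6a and these genes were picked out after their values were seen.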
